A study of Mus musculus with 20 samples.

Results

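Chemokines and their receptors were followed in mouse ileal mucosa with 39 real-time PCR assays for 36 genes, out of 648 assays for 584 genes on an inflammation panel. Members were the assays whose gene symbol marks a chemokine or a chemokine receptor, together with Ppbp. The rule used names alone, but it was set with earlier results of these data known. Another 15 assays of the family, among them those for Cxcl2, Cxcl9, Cxcl10, Ccl24, Ccl25, Ccr3, Ccr6 and Ccr9, lay outside the set by name, and Pf4 was not analysed here. Of the 39 assays, 5 have primers within a single exon (Ccr1, Ccr1l1, Xcr1, Ccrl1 and Cxcr7), so that they can also amplify genomic DNA. They were kept apart from the other 34, called exon-junction assays below. That name covers every assay id not ending in s1, among them those of Ccl7 (Mm01308393), Cxcl5, Ccl19 and Ccrl2, which end in g1. Whether these other assays avoid genomic DNA was not tested.

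The study compared 4 groups of 5 samples. Healthy controls received phosphate-buffered saline (PBS) into the rectum and by mouth. The DNBS group was given DNBS into the rectum (dinitrobenzene sulfonic acid, which binds to proteins and provokes colitis) and oral PBS, the CEC group intrarectal DNBS and an oral agent that the labels call CEC without spelling it out, and the Nissle group intrarectal DNBS and oral Nissle, the name of a probiotic Escherichia coli strain. Strain and age of the mice are not given in the sources used here. The series text says that RNA of the mice was pooled in equal amounts, so a sample may hold more than 1 mouse and the p-values then reflect sample-to-sample spread alone, which may be technical. For Nissle 3, 4 and 5, 1 label names the healthy controls while title, description and treatment labels name Nissle. They were kept in the Nissle group.

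Chemokines are small secreted proteins that steer leukocytes along concentration gradients through G protein-coupled receptors on the moving cell. In an inflamed gut, ligands of CCR2 draw monocytes out of the blood and ligands of CXCR2 draw neutrophils, whereas others, such as CCL28 and CX3CL1 made by the epithelium, serve the resting mucosa. Many inflammatory chemokine genes lie side by side in the genome and are switched on through NF-kappaB. In the order of the RefSeq gene table, Ccl2, Ccl7, Ccl11, Ccl12, Ccl8 and Ccl1 follow one another, as do Cxcl5, Ppbp, Pf4, Cxcl3, Cxcl15, Cxcl1 and Cxcl2. RefSeq promoters (GRCm38.p6, 250 bases before to 50 after the gene's start) were at hand for 25 of the 36 member genes, but not for Ccl2, Ccl7 or Cxcl5. Those of 3 CXCR2 ligands from the same cluster are shown because Cxcl1 and Cxcl3 were among the members with the largest mean differences between DNBS and healthy samples and their neighbour Ppbp was not. They lie on the plus strand at chr5:90890995-90891294 (Cxcl1), chr5:90785851-90786150 (Cxcl3) and chr5:90768268-90768567 (Ppbp). Capitals mark every match to GGGNNNTTCC, a loose form of the sequence bound by NF-kappaB, searched on both strands.
Cxcl1: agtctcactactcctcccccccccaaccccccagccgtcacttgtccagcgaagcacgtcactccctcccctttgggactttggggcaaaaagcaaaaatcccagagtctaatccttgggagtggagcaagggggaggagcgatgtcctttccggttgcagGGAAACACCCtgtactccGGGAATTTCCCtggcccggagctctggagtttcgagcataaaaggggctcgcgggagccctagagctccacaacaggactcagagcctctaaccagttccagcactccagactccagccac
Cxcl3: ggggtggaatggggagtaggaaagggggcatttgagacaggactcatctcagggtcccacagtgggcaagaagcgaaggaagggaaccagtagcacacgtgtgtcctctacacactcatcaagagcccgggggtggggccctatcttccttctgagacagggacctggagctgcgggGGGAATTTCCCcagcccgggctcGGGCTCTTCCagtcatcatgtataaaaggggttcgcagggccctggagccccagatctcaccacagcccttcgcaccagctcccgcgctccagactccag
Ppbp: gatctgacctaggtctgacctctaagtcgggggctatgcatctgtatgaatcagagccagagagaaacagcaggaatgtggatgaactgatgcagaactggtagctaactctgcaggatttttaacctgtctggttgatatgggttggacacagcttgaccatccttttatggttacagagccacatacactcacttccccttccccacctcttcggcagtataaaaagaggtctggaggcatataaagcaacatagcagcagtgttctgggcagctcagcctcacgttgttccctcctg

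The Cxcl1 promoter held 3 matches, starting 89, 71 and 70 bases before the gene's start, and the Cxcl3 promoter 3, starting 73, 72 and 50 bases before it. In both genes an overlapping pair of matches forms the same run of letters, GGGAATTTCCC. The Ppbp window held 0 matches. Of 32851 mouse promoters of this length, 1825 (5.56%) held a match, against 4 of the 25 member promoters (16.0%), those of Ccl1, Ccl20, Cxcl1 and Cxcl3. Between DNBS and healthy samples, Ccl1 differed by 0.16 (SE 0.64) and Ccl20 by 0.48 (SE 0.92). The promoters shown were picked by such differences, so their match counts cannot serve as evidence of a link. Whether matches go with the differences was not tested. A match is a description of the letters and not a measured binding site.

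Each value is a cycle threshold (Ct), the PCR cycle at which the product crosses a fixed fluorescence, so that a lower Ct means more template. Each sample had values for 570 to 594 assays, and its mean Ct over the 544 assays measured throughout lay between 22.6 and 24.3. Relative levels are given below as minus the difference between an assay's Ct and that mean in the same sample, on a log2 scale if every cycle doubles the product. Of the ileal epithelium markers on the panel, Apoa1, Ccl25 and Reg3g gave values in every group, with the highest summed level of any marker list (10.8 to 12.3), and Apoa4 gave none in any sample. In such tissue samples, fewer cells of a type and less RNA per cell cannot be told apart.

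Most members were measurable in every sample: 35 of 39 assays gave a value in all 20. Ccl26 gave no value in any sample. Cxcl14, a chemokine made constitutively by epithelia, gave a value in healthy 3 and healthy 5 alone, and Cxcl17, a mucosal chemokine, in 5 samples (DNBS 1 and 2, CEC 1 and 3, Nissle 3) and in 0 healthy samples. Ccl1, a ligand of CCR8, was without a value in CEC 1 and CEC 7. None of these detection patterns differed between groups in Fisher's exact test (smallest two-sided p = 0.444 before adjustment). Tests were run on the 36 members that had 3 or more values per group.

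Ccl6 had the lowest mean Ct (17.7), followed by the assays for Ccl5 (19.1 and 20.4), which attracts T cells, Cxcl12 (20.9), the stromal ligand of CXCR4, and Cx3cl1 (21.1). Ccl28 and Cxcl16 both averaged 21.9 and Ccl11 22.1. At the other end lay Cxcl3 (27.6), Ppbp (28.0), Ccl1 (28.5) and, in its 5 samples, Cxcl17 (30.7). Ct also depends on each primer pair, so this order is not an order of transcript amounts. The members differed widely in how far samples of 1 group lay apart. The pooled SD within groups was 0.27 log2 units for Ccl28 and 0.32 for Cxcl16, but 1.56 for Cxcl1 (assay Mm04207460), 1.60 for Ccl20 and 2.23 for Cxcl3, whose relative level spanned 10.2 log2 units over the 20 samples.

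**Figure D1:**
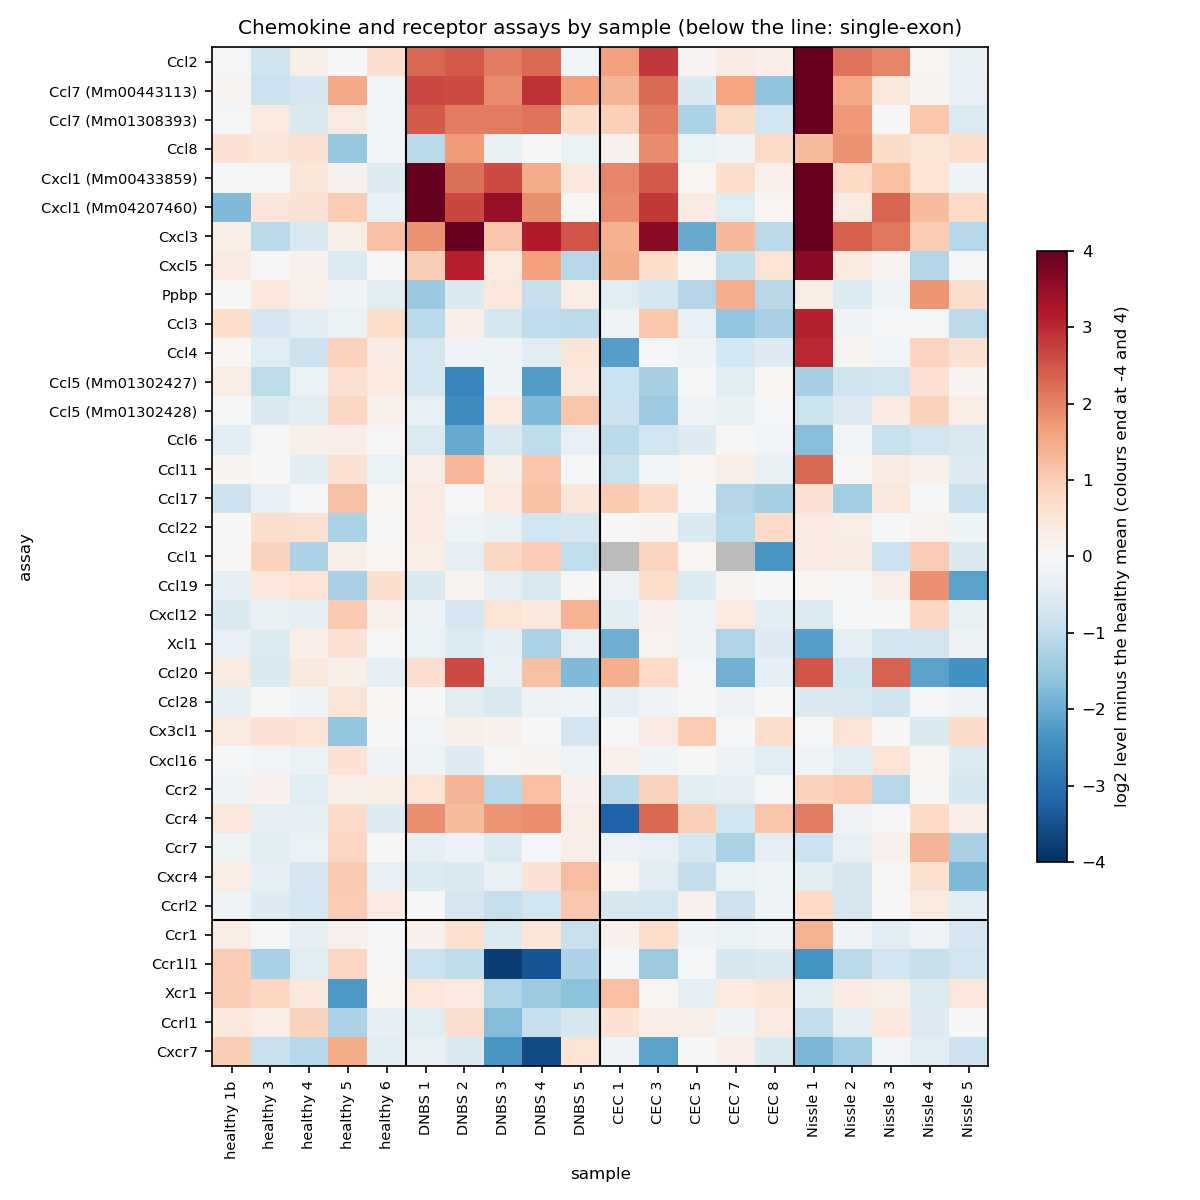
Relative level of 35 of the 36 tested chemokine and receptor assays (vertical axis, grouped by role) in each of the 20 samples (horizontal axis), as the log2 difference from the healthy mean; colours end at -4 and 4, grey is no value, and the 5 single-exon assays are below the line. Ccl2, Ccl7, Cxcl1 and Cxcl3 lie above the healthy mean in DNBS 1 to 4, CEC 1, CEC 3, Nissle 1, Nissle 2 and Nissle 4. Nissle 1 is highest in all of these genes, and the remaining samples differ from gene to gene.

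With DNBS, the mucosa had higher mean levels of most ligands that call in monocytes and neutrophils, and lower mean levels of Ccl3, Ccl4, Ccl5 and Ccl6. Ccl7, Ccl2, Cxcl1 and Cxcl3 were 3.47 to 6.44-fold higher on average, and Ccl6 was 1.87-fold lower (n = 5 samples in each group). None of these differences passed the threshold. With limma and Benjamini-Hochberg adjustment over the 569 assays tested, 0 of 36 members were called, against 0.176% of all assays. At an unadjusted p under 0.05 there were 9 member assays (25.0%), 6 higher and 3 lower, against 14.6% of all assays (6.68% higher and 7.91% lower). The 6 higher were Ccl2, Cxcl3, both Cxcl1 assays and both Ccl7 assays, so Cxcl1 and Ccl7 enter this count more than once. When DNBS and healthy samples were fitted without the other groups, both Ccl7 assays were called, among 9 of all 571 assays tested. With samples weighted by their spread, calls rose over the whole panel, to 90 of 569 assays. These included 9 members (both Ccl7 and both Cxcl1 assays, Ccl2, Ccr4, Ccl6, Ccrl1 and Ccr1l1). With the sample number as a replicate block, 0 members were called and 2 had an unadjusted p under 0.05.

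All 4 assays of CCR2 ligands had a higher mean with DNBS, as did 48.1% of all exon-junction assays, with a median difference of 1.85 log2 units against -0.02 over all exon-junction assays tested. Ccl2 (MCP-1), the main attractant of inflammatory monocytes, had relative levels of -2.88, -3.61, -2.57, -2.83 and -2.14 in healthy samples 1b, 3, 4, 5 and 6, and of -0.50, -0.34, -0.74, -0.55 and -2.91 in DNBS samples 1 to 5. DNBS 1 to 4 lay close together above every healthy sample, while DNBS 5 lay within the healthy range, so the groups overlap. The mean went from -2.80 ± 0.54 (SD, n = 5) to -1.01 ± 1.07, a difference of 1.79 (SE 0.81; limma adjusted p = 0.307).

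Ccl7 (MCP-3), which shares CCR2 with Ccl2, was read by 2 assays. With Mm01308393 the healthy samples were at -2.80, -2.37, -3.34, -2.38 and -2.87 and the DNBS samples at -0.29, -0.68, -0.67, -0.59 and -2.01. With Mm00443113 they were at -3.42, -4.39, -4.22, -2.01 and -3.64, and at -0.91, -0.94, -1.66, -0.64 and -1.88. In both assays every DNBS sample was above every healthy sample, although the gap was narrow at DNBS 5. These were the only 2 of 36 members whose DNBS samples lay wholly above the healthy ones, against 1.81% of all assays with values in every sample of both groups, and 0 members lay wholly below (2.54%). The differences were 1.90 (SE 0.76; limma adjusted p = 0.224) and 2.33 (SE 0.87; adjusted p = 0.163). Ccl8 (MCP-2), the remaining ligand of the role, differed by 0.01 (95% interval -1.06 to 1.08). Ccr2, the receptor of these ligands, differed by 0.44 (-0.55 to 1.43).

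Of the 5 assays of CXCR2 ligands, 4 had a higher mean with DNBS, and the median difference was 2.15. Cxcl1 (KC), a neutrophil attractant, was read by 2 assays, which gave -3.21, -3.24, -2.66, -2.98 and -3.67 in healthy samples and 0.86, -0.94, -0.54, -1.68 and -2.73 in DNBS samples (Mm00433859), and -5.15, -2.90, -2.81, -2.35 and -3.67 against 0.90, -0.70, 0.12, -1.53 and -3.34 (Mm04207460). DNBS 1 to 4 were above all healthy samples in both assays and DNBS 5 was not. The differences were 2.15 (SE 0.78) and 2.47 (SE 0.89), each with a limma adjusted p of 0.158, and 1.37 and 1.38 with the sample number as a replicate block. The Ct of the 2 assays differed by 0.05 ± 0.71 (SD, 20 samples), but by as much as 1.94 in a single sample.

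Cxcl3, a close relative of Cxcl1 and Cxcl2, was at -5.45, -6.79, -6.32, -5.50 and -4.56 in healthy samples and at -3.92, -0.87, -4.60, -2.56 and -3.22 in DNBS samples. DNBS 3 lay just inside the healthy range and DNBS 2 stood far above it. The mean difference, 2.69, had an SE of 1.27 (limma adjusted p = 0.331). Cxcl5 (LIX), which epithelial cells make, was at 0.33, 0.00, 0.14, -0.58 and -0.06 in healthy samples and at 0.94, 3.08, 0.35, 1.60 and -1.17 in DNBS samples. DNBS 5 was the lowest of these 10 and DNBS 2 the highest, and the mean difference was 0.99 (95% interval -0.53 to 2.52). Ppbp, made chiefly by megakaryocytes and platelets, went the other way, with -4.49, -4.06, -4.29, -4.62 and -4.93 against -5.95, -5.05, -4.06, -5.41 and -4.19. The 2 groups overlap and differed by -0.45 (-1.60 to 0.70).

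**Figure D2:**
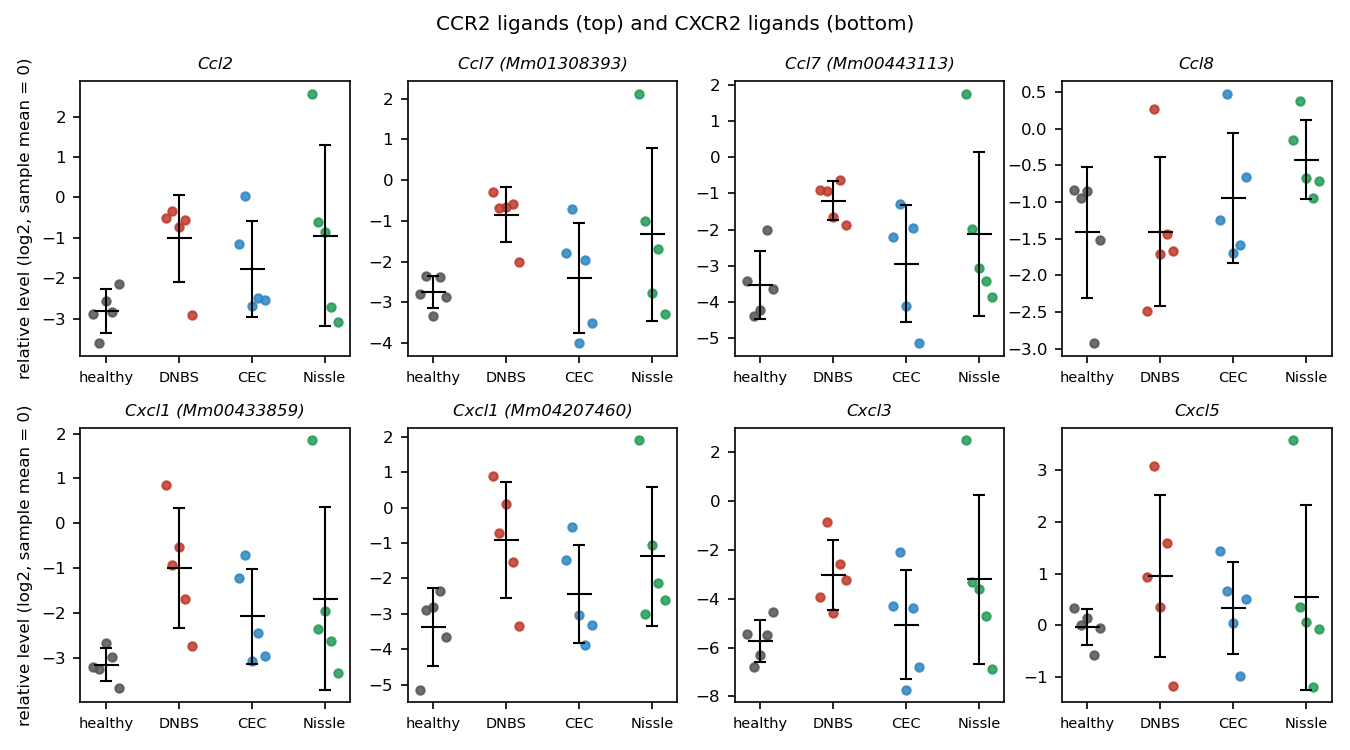
Relative level (vertical axis, log2) of CCR2 ligands (top) and CXCR2 ligands (bottom) in the 4 groups, 1 point per sample, with the group mean and SD as bars. In Ccl2, both Ccl7 assays, both Cxcl1 assays, Cxcl3 and Cxcl5 the highest point of all 20 is Nissle 1, and the vertical scales differ between panels.

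DNBS 5 was the lowest DNBS sample in Ccl2, both Ccl7 assays, both Cxcl1 assays and Cxcl5, though not in Cxcl3. Averaged over Ccl2, Ccl7, Cxcl1, Cxcl3 and Cxcl5 and set against the healthy mean, DNBS 1 to 4 were at 2.35, 3.04, 1.72 and 2.25, and DNBS 5 at 0.54. Healthy samples ranged from -0.38 to 0.26. Neutrophil markers were likewise highest in DNBS 2 and lowest in DNBS 5. Of 10 listed genes, 7 were on the panel (S100a8, S100a9, Ltf, Camp, Ncf1, Fpr1 and Il8rb, the CXCR2 gene, 8 assays), none without values, and their summed level was 3.17 to 5.63 in DNBS 1 to 4, 1.84 in DNBS 5 and 0.92 to 2.06 in healthy samples. All 8 marker assays had a higher mean with DNBS (median 2.14), 4 at an unadjusted p under 0.05 and 0 called by limma. Their part in the ligand differences was not tested.

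Ccl3, Ccl4, Ccl5 and Ccl6, CC ligands that act on macrophages, T cells and granulocytes, all had a lower mean with DNBS (5 of 5 assays, median -0.72, against 51.9% of all exon-junction assays). Ccl6, an attractant of macrophages and eosinophils that is found in rodents and acts through CCR1, was at 5.82, 6.19, 6.52, 6.53 and 6.31 in healthy samples and at 5.74, 4.25, 5.65, 5.25 and 5.95 in DNBS samples. Of the DNBS samples, only DNBS 5 lay above the lowest healthy sample, 1b. The difference was -0.90 (SE 0.32; limma adjusted p = 0.158), and it was -0.62 to -1.05 when any 1 of the 20 samples was left out.

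Ccl5 (RANTES) gave 3.74, 2.42, 3.17, 4.03 and 3.83 in healthy samples against 2.73, 0.80, 3.26, 1.21 and 3.85 in DNBS samples with assay Mm01302427. With Mm01302428 it gave 4.57, 4.03, 4.20, 5.45 and 4.83 against 4.29, 2.10, 5.0, 2.85 and 5.72. DNBS 2 and 4 were below every healthy sample in both assays, and the other DNBS samples lay among the healthy ones, except that DNBS 5 was above them all with Mm01302428. The differences, -1.07 (SE 0.51; limma adjusted p = 0.331) and -0.63 (SE 0.53; adjusted p = 0.621), rested on those samples: without DNBS 2 they were -0.68 and -0.16. With the sample number as a replicate block they were -0.47 and -0.14. Ccl3 and Ccl4 (MIP-1 alpha and beta) differed by -0.72 (95% interval -2.02 to 0.59) and -0.19 (-1.28 to 0.90).

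The remaining ligands had smaller differences, and none reached an unadjusted p under 0.05. Ccl11 (eotaxin), which recruits eosinophils through CCR3, differed by 0.56 (95% interval -0.30 to 1.42). Of the CCR4 ligands, Ccl17 differed by 0.48 (-0.54 to 1.49) and Ccl22 by -0.31 (-1.11 to 0.48). The lymphoid-tissue chemokines Ccl19 and Cxcl12 differed by -0.27 (-1.36 to 0.83) and 0.29 (-0.46 to 1.04), and Xcl1, released by T and NK cells, by -0.56 (-1.42 to 0.30). Among the epithelial chemokines the intervals were narrowest for Ccl28, a ligand of CCR10 (-0.28, from -0.72 to 0.16), and Cxcl16, the ligand of CXCR6 (-0.15, -0.63 to 0.33). Cx3cl1 differed by -0.09 (-0.84 to 0.67). Ccl20, the ligand of CCR6, differed by 0.48 with an interval from -1.43 to 2.38, and the DNBS samples reached from -3.26 (DNBS 5) to 1.13 (DNBS 2).

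Among the receptors with exon-junction assays, Ccr4, carried by regulatory and type 2 helper T cells, stood out. It was at -2.83, -3.66, -3.65, -2.53 and -3.80 in healthy samples and at -1.42, -2.04, -1.54, -1.43 and -2.98 in DNBS samples. DNBS 1 to 4 lay above all healthy samples and DNBS 5 among them. The difference was 1.41 (SE 0.73; limma adjusted p = 0.396). Ccr7, Cxcr4 and Ccrl2 differed by -0.20, 0.07 and -0.24, each with an SE of 0.39 to 0.44.

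All 5 single-exon receptor assays had a lower mean with DNBS (median -0.70), and so did 88.7% of the 53 single-exon assays on the whole panel (median -0.65). Ccr1l1, a receptor-like gene next to Ccr1, was at 0.21, -2.07, -1.28, 0.08 and -0.88 in healthy samples and at -1.65, -1.80, -4.55, -4.24 and -2.01 in DNBS samples. DNBS 3 and 4 were far below the rest. The difference of -2.06 (SE 0.58) had the smallest limma adjusted p of the members in any comparison, 0.122, and was -1.38 when single-exon assays were normalized to their own mean. Cxcr7 (Ackr3), a scavenger of CXCL12, was at -0.43, -2.32, -2.57, 0.07 and -1.83 against -1.71, -1.98, -3.73, -4.99 and -0.87. The groups overlap, and DNBS 3 and 4 were again lowest. Its difference of -1.24 (SE 0.69; limma adjusted p = 0.410) was -0.56 with the separate normalization and -0.66 without DNBS 4. Xcr1, the XCL1 receptor of cross-presenting dendritic cells, Ccrl1 (Ackr4), a scavenger of CCL19 and CCL21, and Ccr1 differed by -0.70, -0.63 and -0.05.

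**Figure D3:**
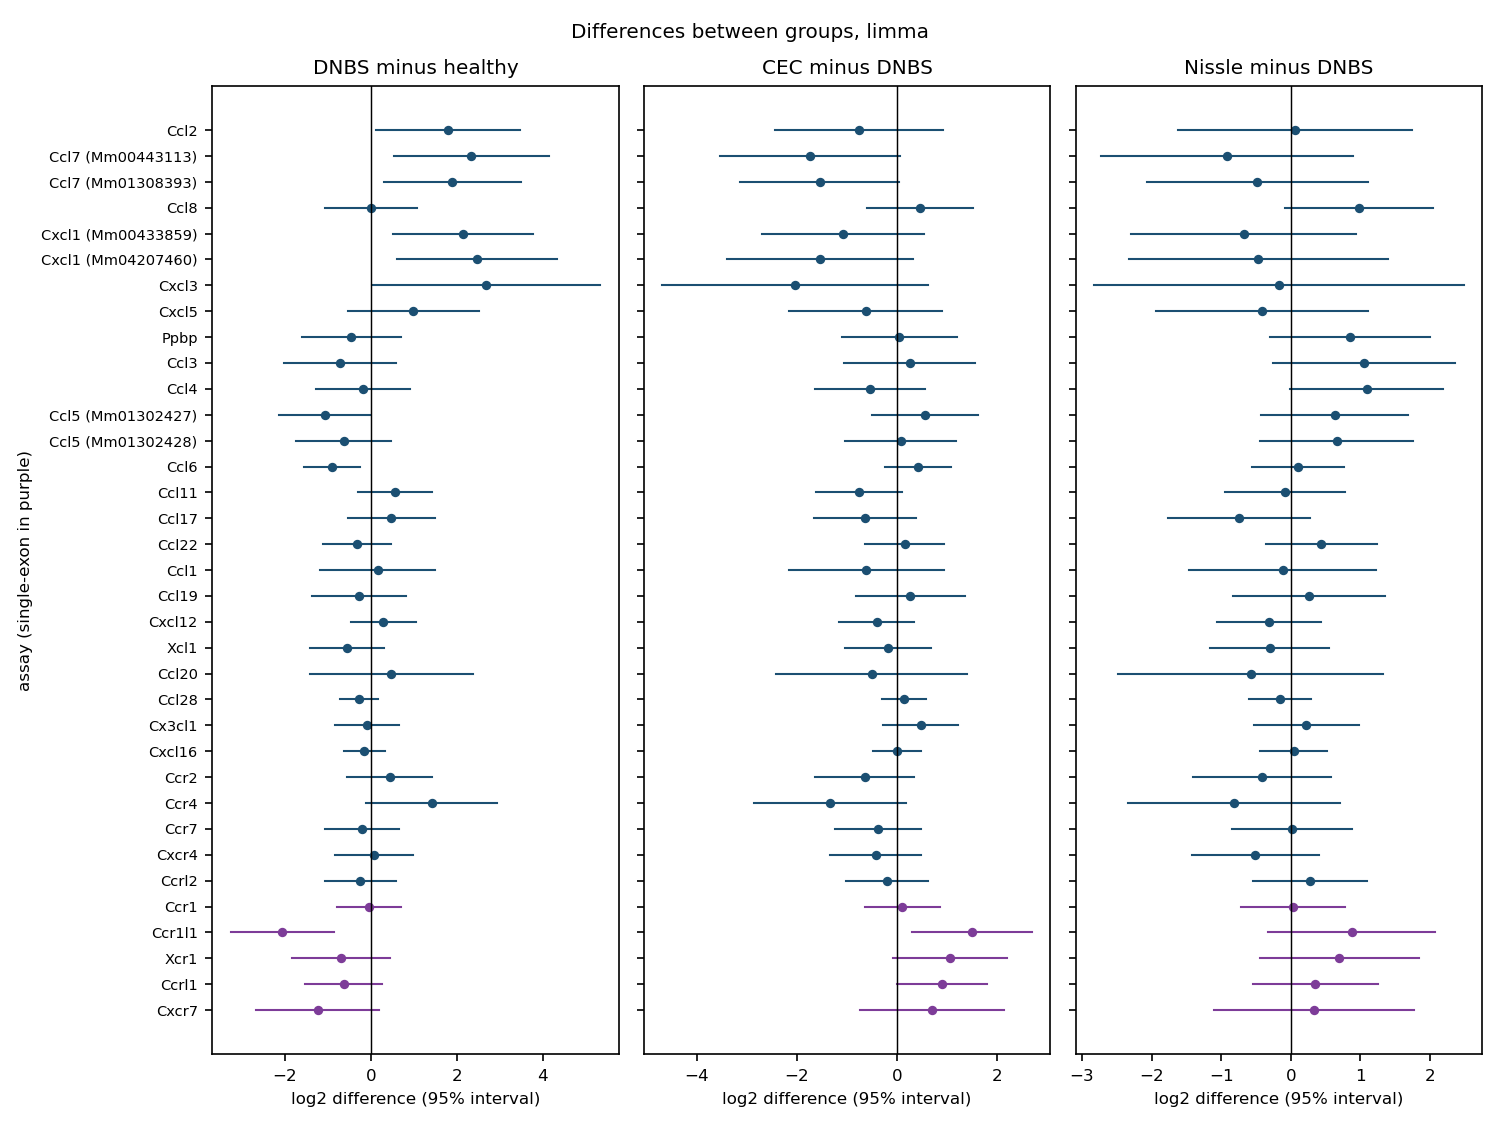
Log2 difference between group means (horizontal axis; point, with the 95% interval from limma as a line) for 35 of the 36 tested assays (vertical axis) in 3 comparisons, single-exon assays in purple. In DNBS minus healthy, the intervals of Ccl2, both Ccl7 assays, both Cxcl1 assays and Cxcl3 lie above 0 and those of Ccl6, Ccl5 (Mm01302427) and Ccr1l1 below it, before any adjustment for the 569 assays tested.

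In the CEC group, Ccl2, Ccl7, Cxcl1, Cxcl3 and Cxcl5 had means between those of the healthy and the DNBS group. The mean of Ccl8 was above both, and those of Ccl4 and Ccl11 were below both. Against the same healthy samples, CCR2 ligands differed by a median of 0.53 and CXCR2 ligands by 0.66. With limma, 0 of 36 members were called (0.176% of all assays), and 0 had an unadjusted p under 0.05 (3.87% of all assays). Averages over the 5 ligands named above separated the CEC samples: CEC 1 and CEC 3 were 1.52 and 2.39 above the healthy mean, and CEC 5, 7 and 8 were at -0.51, 0.40 and -0.27. Neutrophil marker sums were 4.41 and 4.29 in CEC 1 and 3 and 0.95 to 1.54 in the other 3. The part of these markers in the ligand levels was not tested.

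The CEC-to-healthy differences with the smallest p were those of Xcl1 (-0.74), Ccl6 (-0.49), Ccr7 (-0.58), the receptor that guides dendritic and naive T cells to lymph nodes, and Ccl4 (-0.73), each with a limma adjusted p of 0.803. Xcl1 was at -2.50, -0.41, -0.72, -1.76 and -1.05 in CEC 1, 3, 5, 7 and 8 and at -0.87, -1.10, -0.26, 0.05 and -0.53 in healthy samples. CEC 1 and 7 were below every healthy sample and the other 3 lay within the healthy range. Without CEC 1 the difference was -0.44. Ccl4 was at -4.02, -1.91, -1.94, -2.51 and -2.34 in CEC samples and at -1.75, -2.30, -2.64, -0.89 and -1.49 in healthy ones. CEC 1 was by far the lowest, and without it the difference was -0.36. Of the single-exon receptors, Ccr1l1 differed by -0.57 (SE 0.58) and Cxcr7 by -0.53 (SE 0.69).

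Set directly against DNBS, CEC samples had lower means for 3 of 4 assays of CCR2 ligands (median -1.15) and 4 of 5 of CXCR2 ligands (median -1.07). Over all exon-junction assays 55.4% had a lower mean, with a median of -0.05. Again 0 of 36 members were called by limma (0.0% of all assays), and 1 member (2.78%) had an unadjusted p under 0.05, against 10.7% of all assays. That number was 7 without CEC 3, 6 without Nissle 1, 5 without DNBS 5 and 0 without DNBS 4. For these fits, too, the share of all assays was not counted. The DNBS samples are those of the DNBS-to-healthy comparison, so a DNBS sample that is high or low moves both. Marker lists differed between CEC and DNBS samples as well. All 8 neutrophil assays had a lower mean with CEC (median -1.22, 0 at an unadjusted p under 0.05), and the summed level was 0.95 to 4.41 against 1.84 to 5.63. Of 6 macrophage and dendritic cell assays (12 genes listed, 6 on the panel), 4 had a higher mean (median 0.84, 3 at an unadjusted p under 0.05), with sums of 2.09 to 3.75 against 1.66 to 2.82. Of 4 ileal epithelium assays, 3 had a higher mean (median 1.14, 3 at an unadjusted p under 0.05), with sums of 10.78 to 11.95 against 11.11 to 12.34. None of these marker assays was called by limma, and their part in the chemokine differences was not tested.

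Ccl7 was at -1.78, -0.70, -4.01, -1.97 and -3.51 in CEC 1, 3, 5, 7 and 8 with assay Mm01308393, and at -2.19, -1.28, -4.13, -1.95 and -5.15 with Mm00443113. With Mm01308393, CEC 1, 3 and 7 lay within the DNBS range. With Mm00443113 only CEC 3 did, and CEC 7 was just below the lowest DNBS sample, DNBS 5 (-1.88). In both assays CEC 5 and 8 were the lowest of all CEC samples. The differences from DNBS were -1.55 (SE 0.76; limma adjusted p = 0.459) and -1.74 (SE 0.87; adjusted p = 0.467). With samples weighted by their spread these 2 assays and Ccr1l1 were called, among 21 of all 569 assays. Ccl11 was at 0.16, 0.96, 1.15, 1.28 and 0.77 in CEC samples and at 1.31, 2.39, 1.28, 2.16 and 0.97 in DNBS samples. DNBS 5 lay among the CEC samples, and DNBS 3 (1.279) just under the highest of them, CEC 7 (1.284). DNBS 1, 2 and 4 lay above all CEC samples, and the difference was -0.76 (SE 0.41; limma adjusted p = 0.480).

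Ccr4 was at -6.54, -1.01, -2.33, -4.04 and -2.18 in CEC samples. These values enclose the whole DNBS range, with CEC 1 the lowest and CEC 3 the highest of all 20 samples. The difference of -1.34 (SE 0.73; limma adjusted p = 0.480) was -0.51 without CEC 1. For the remaining ligands of CXCR2 and CCR2, Cxcl1 differed by -1.54 (Mm04207460) and -1.07 (Mm00433859), Cxcl3 by -2.03 (95% interval -4.69 to 0.62), Cxcl5 by -0.63, Ccl2 by -0.76 (-2.44 to 0.92) and Ccl8 by 0.46. Each of these intervals holds 0.

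The 5 single-exon receptors all had a higher mean with CEC than with DNBS (median 0.89), as did 81.1% of all single-exon assays (median 0.64). Ccr1l1 was at -0.87, -2.22, -0.87, -1.44 and -1.37 in CEC samples, 4 of them above every DNBS sample and CEC 3 among them. The difference was 1.49 (SE 0.58; limma adjusted p = 0.385), and 0.91 with single-exon assays normalized to their own mean. Ccrl1 was at -1.43, -1.74, -1.75, -2.13 and -1.66 in CEC samples and at -2.47, -1.37, -3.75, -2.93 and -2.65 in DNBS samples. DNBS 2 alone was above the CEC samples. The difference of 0.89 (SE 0.43; limma adjusted p = 0.458) was 0.30 with the separate normalization. Xcr1, Cxcr7 and Ccr1 differed by 1.05, 0.71 and 0.11.

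In the Nissle group the means of the same ligands were set largely by 1 sample. Nissle 1 was the highest of all 20 samples in 11 of the 36 tested members, more than any other sample (healthy 5 followed with 8). Averaged over Ccl2, Ccl7, Cxcl1, Cxcl3 and Cxcl5 it was 5.48 above the healthy mean, while Nissle 2 to 5 were at 1.44, 1.23, 0.28 and -0.33. Its neutrophil marker sum was 7.18, against 1.35 to 2.32 in the other Nissle samples, and its level of Selp, an endothelial adhesion molecule, was 0.31 against -3.08 to -1.72. Its labels match those of Nissle 2, and the part of these markers in its ligand levels was not tested.

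Against healthy samples, 0 of 36 members were called by limma (0.176% of all assays), and 4 (11.1%) had an unadjusted p under 0.05, against 9.49% of all assays. Without Nissle 1 that number was 0, without Nissle 5 it was 8, without healthy 6 it was 2, and without the 3 samples of contradictory label it was 13. The share of all assays was not counted in these fits, so a change over the whole panel cannot be told apart. All 4 assays of CCR2 ligands (median 1.42) and all 5 of CXCR2 ligands (median 1.47) had a higher mean, against 44.0% of all exon-junction assays. Ccl2 was at 2.56, -0.62, -0.85, -2.72 and -3.09 in Nissle 1 to 5. Nissle 1, 2 and 3 were above every healthy sample and Nissle 4 and 5 within the healthy range. The difference of 1.86 (SE 0.81; limma adjusted p = 0.488) was 0.98 without Nissle 1, and 3.77 without the 3 samples of contradictory label, which leaves Nissle 1 and 2.

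Cxcl1 was at 1.90, -3.01, -1.04, -2.12 and -2.61 with assay Mm04207460. Nissle 1, 3 and 4 exceeded every healthy sample. The difference was 2.0 (SE 0.89; limma adjusted p = 0.488), and 1.18 without Nissle 1. With Mm00433859 it was at 1.84, -2.36, -1.95, -2.62 and -3.34, with Nissle 1 to 4 above every healthy sample. The difference there was 1.47 (SE 0.78; limma adjusted p = 0.502), 0.59 without Nissle 1 and 2.89 without the 3 samples of contradictory label. Ccl6 was at 4.58, 6.18, 5.39, 5.55 and 5.68 in Nissle samples. Nissle 2 was the only one inside the healthy range, and the difference was -0.80 (SE 0.32; limma adjusted p = 0.488), or -0.58 to -0.97 when any 1 sample was left out. Xcl1 was at -2.74, -0.92, -1.31, -1.27 and -0.77. Nissle 1 was lowest and Nissle 2 and 5 lay within the healthy range. The difference of -0.86 (SE 0.41; limma adjusted p = 0.500) was -0.53 without Nissle 1. Of the single-exon receptors, Ccr1l1 differed by -1.19 (SE 0.58; limma adjusted p = 0.50) and Cxcr7 by -0.91 (SE 0.69), or -0.83 and -0.55 with single-exon assays normalized to their own mean.

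**Figure D4:**
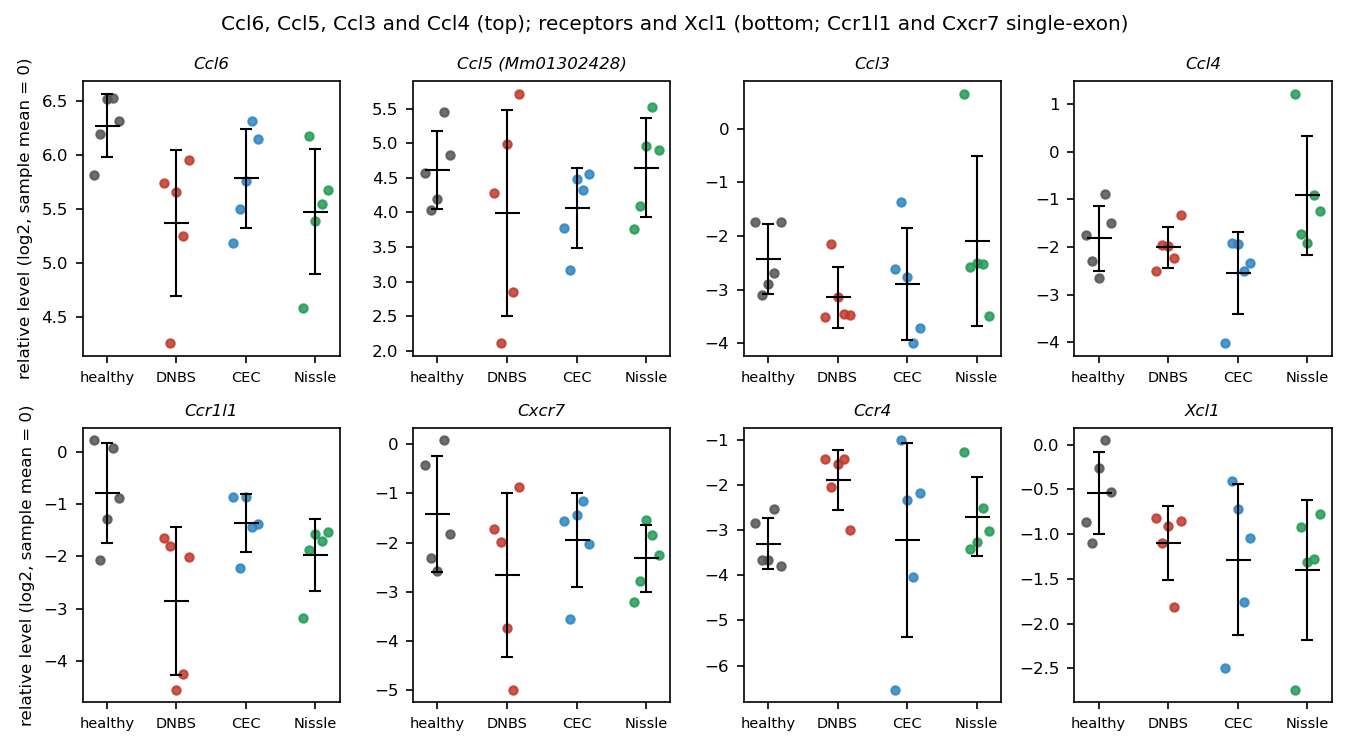
Relative level (vertical axis, log2) of Ccl6, Ccl5, Ccl3 and Ccl4 (top) and of Ccr1l1, Cxcr7, Ccr4 and Xcl1 (bottom) in the 4 groups, 1 point per sample, with the group mean and SD as bars. Ccl6 is highest in the healthy group (6.27 ± 0.29), Nissle 1 is the top point for Ccl3 and Ccl4, and the vertical scales differ between panels.

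Compared with DNBS, Nissle samples had median differences near 0 for the CCR2 and CXCR2 ligands (-0.21 and -0.42), but without Nissle 1 these medians were -1.08 and -1.29. Without the 3 samples of contradictory label they were 1.46 and 0.75. With limma, 0 of 36 members were called (0.0% of all assays), and 0 had an unadjusted p under 0.05 (4.22% of all assays). Ccl3, Ccl4, Ccl5 and Ccl6 all had a higher mean (5 of 5 assays, median 0.66, against 42.1% of all exon-junction assays). Ccl4 was at 1.21, -1.72, -1.92, -0.91 and -1.24 in Nissle samples and at -2.51, -1.97, -1.98, -2.24 and -1.34 in DNBS samples. Nissle 1 stood alone at the top, and Nissle 4 and 5 were also above every DNBS sample. The difference was 1.09 (SE 0.53; limma adjusted p = 0.850), and 0.56 without Nissle 1.

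Ccl3 was at 0.64, -2.58, -2.51, -2.51 and -3.48 in Nissle samples and at -3.51, -2.15, -3.13, -3.45 and -3.48 in DNBS samples. Apart from Nissle 1 the groups overlap, and the difference of 1.05 (SE 0.63; limma adjusted p = 0.850) was 0.37 without it. Ccl8 was at -0.15, 0.38, -0.68, -0.94 and -0.72 in Nissle samples and at -2.49, 0.27, -1.71, -1.43 and -1.67 in DNBS samples. DNBS 2 alone reached the Nissle range. The difference was 0.98 (SE 0.51; limma adjusted p = 0.850), and it stayed between 0.71 and 1.40 when any 1 sample was left out. Without the 3 samples of contradictory label the differences were 1.75 for Ccl4, 2.17 for Ccl3 and 1.52 for Ccl8. Ppbp differed by 0.85 (95% interval -0.30 to 2.0), or 0.33 without those samples, and all 5 single-exon receptors had a higher mean (median 0.35), as did 73.6% of all single-exon assays (median 0.33), with Ccr1l1 at 0.88 (SE 0.58) and Xcr1 at 0.70 (SE 0.55), or 0.55 and 0.37 with the separate normalization.

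The 2 oral treatments, set against each other, also gave no called member with limma (0 of 36, against 0.0% of all assays), and 1 member (2.78%) at an unadjusted p under 0.05, against 1.41% of all assays. That member was Ccl4, for which all 5 CEC samples lay between -4.02 and -1.91 and the Nissle samples between -1.92 and 1.21. The groups touch at CEC 3 and Nissle 3, and the difference was -1.63 (SE 0.53; limma adjusted p = 0.998). It was -1.88 to -1.10 when any 1 sample was left out. Cxcl3 differed by -1.86 (SE 1.27), but by -0.44 without Nissle 1, and Ccl11 by -0.68 (SE 0.41), or -0.22 without it. Without the 3 samples of contradictory label these were -4.64 and -1.37. Ppbp differed by -0.81 (95% interval -1.96 to 0.34), or -0.29 without those samples. Of the single-exon receptors, Ccrl1 differed by 0.54 (SE 0.43) and Ccr1l1 by 0.62 (SE 0.58), or 0.28 and 0.36 with the separate normalization.

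Of the pathway's other genes, 32 on the panel were measured by 38 assays, among them the chemokines outside the set, further chemoattractant receptors, inducing cytokines and leukocyte adhesion molecules. With DNBS, 19 of these assays had a higher and 19 a lower mean, 4 and 6 of them at an unadjusted p under 0.05 and 0 called by limma. The 2 with the smallest p were Cxcl2, the neighbour and relative of Cxcl1 and Cxcl3, at 4.78 (SE 1.27; limma adjusted p = 0.122), with all DNBS samples above all healthy ones, and the single-exon assay of Ccr3, the eotaxin receptor, at -1.70 (SE 0.49; adjusted p = 0.122). Of all single-exon assays, 88.7% had a lower mean with DNBS (median -0.65). In CEC against DNBS, 8 pathway assays were higher and 2 lower at an unadjusted p under 0.05 (6.68% and 4.04% of all assays), and 0 were called. They were led by the single-exon assays of Cx3cr1, the receptor of CX3CL1 on resident macrophages (1.28), and Ccr9, which with CCL25 homes lymphocytes to the small intestine (1.59), each with a limma adjusted p of 0.385. In this comparison of CEC with DNBS, 81.1% of all single-exon assays had a higher mean (median 0.64). In Nissle against DNBS, 2 pathway assays were higher and 1 lower at an unadjusted p under 0.05 (1.58% and 2.64% of all assays), and 0 were called.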

How the data were processed

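Ileal mucosal RNA (mirVana kit, Bioanalyzer check) was turned into cDNA and run on the TaqMan OpenArray Mouse Inflammation Panel, per the labels' protocols. The deposited table holds raw Ct values without normalization, per the file headers. In it 40 stands for no amplification (1273 of 12960 cells, 9.82%) and 1 further cell was empty. Software, threshold settings and any averaging of wells are not given in the sources used here.

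Undetermined values were left missing, and each sample was centred on its mean Ct over 544 assays. That 1 cycle equals 1 log2 unit was assumed. The 4 group means were fitted over all 20 samples with limma 3.58.1 in R 4.3.3 (empirical Bayes with a trend, two-sided, Benjamini-Hochberg at 0.05 over 569 assays with at least 3 values in each group), which was tested on simulated data. The 6 comparisons share samples. Fisher's exact test was used for detection. The number of samples limits the precision.

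Groups share sample numbers, and no label states that a number marks a pairing. Correlations of the deviations of samples with the same number were 0.179, 0.136 and 0.491 for DNBS and healthy samples, and -0.401 to 0.436 in the other 5 comparisons.

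Differences were named for the 4 exon-junction and 2 single-exon members with the smallest p in each comparison, for those with an unadjusted p under 0.05 and for both assays of a gene so named. Other differences complete a role or were chosen after their values were seen. Members, roles and lists were chosen with earlier results of these data known. The values of 1 tested member are not reported here. Promoters come from RefSeq (GRCm38.p6). Alternatives covered normalization, missing values, filters, the model, the replicate block, the 3 samples of contradictory label and each sample left out.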

Additional observations from a re-analysis of the deposited data

Results flagged for a closer look

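Combinations of a member and a group of 5 were screened for a sample far from the other 4. Independent normal values would give about 1 in 20, but these combinations share samples, and some genes enter with 2 assays. The same share over all assays was not counted, so an excess among the members cannot be read from it. Among the 143 combinations, 14 held such a sample. Of these, 5 concern Nissle 1: Ccr1 at 1.19 (nearest other Nissle sample -0.36), Cxcl1 with assay Mm00433859 at 1.84 (-1.95), Ccl3 at 0.64 (-2.51), Xcl1 at -2.74 (-1.31) and Ccr1l1 at -3.18 (-1.88). Another 3 concern healthy 5, with Cxcl16 at 2.20 (nearest 1.57), Cx3cl1 at 0.63 (2.17) and Xcr1 at -3.61 (-1.24). DNBS 5 was low in Ccl2 at -2.91 (nearest -0.74) and in Ccl7 with assay Mm01308393 at -2.01 (-0.68). The other 4 were Xcl1 in DNBS 4 at -1.82, Ccl3 in DNBS 2 at -2.15, Ppbp in CEC 7 at -3.04 and Ccl4 in CEC 1 at -4.02.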

How the results depend on the processing

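The number of called members was 0 under all alternatives run in all 6 comparisons, except under 2 settings. DNBS against healthy gave 2 with both groups alone (9 of all 571 assays called) and 9 with array weights (90 of 569). CEC against DNBS gave 3 with array weights (21 of 569). Leaving out any 1 sample gave 0 in each comparison. No named difference changed its direction, and 12 passed the threshold under those 2 settings. The replicate block gave 0 called members in every comparison and changed no call. Counts at an unadjusted p under 0.05 were less stable, and were not set against all assays in the same fits. With any 1 sample left out they ran from 6 to 12 in DNBS against healthy, 0 to 1 in CEC against healthy, 0 to 8 in Nissle against healthy, 0 to 7 in CEC against DNBS, 0 to 3 in Nissle against DNBS and 1 to 3 in CEC against Nissle. Over the other alternatives the ranges were wider. In the same order of comparisons they were 2 to 14, 0 to 2, 0 to 13, 0 to 14, 0 to 6 and 1 to 8. Without normalization the median over all assays moved from -0.10 to 0.33 in Nissle against healthy and from 0.06 to -0.33 in CEC against Nissle. Adjusted p for Ccr1l1 in DNBS against healthy ranged from 0.00713 to 0.422 over its alternatives. Amplification efficiency was not measured, and low-level assays such as Cxcl3 rest on late cycles.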
